A study of Mus musculus with 18 samples.

Results

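The miRNAs miR-146, miR-155 and miR-21 are well known miRNAs of innate immune signalling, and 5 of their mature forms were taken by name from small RNA libraries of 3 mouse brain cell fractions. They were mmu-miR-146a-5p, mmu-miR-146b-5p, mmu-miR-155-5p, mmu-miR-21a-5p and mmu-miR-21a-3p, and they made up 5 of the 1978 mature miRNAs and 5 of the 203513 features in the table of counts. All mice were 10 months old. WT mice carried the unaltered Atxn2 gene, and KIN mice were homozygous for Atxn2-CAG100-KIN, in which an expanded CAG repeat was knocked into Atxn2 as a model of spinocerebellar ataxia type 2, on a C57BL/6 background that both genotypes shared. Each brain was dissociated, microglia were taken out with beads against CD11b, then astrocytes with beads against ACSA-2, and neurons were what flowed through after the remaining non-neuronal and endothelial cells had been bound. Each of the 6 groups (astrocytes, microglia or neurons, WT or KIN) had 3 libraries. The WT groups were the controls.

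The repeat sits in every cell of the KIN mice, so a fraction's values cannot tell an effect inside that cell type from one that reaches it from other cells, and CD11b also marks myeloid cells other than microglia. In bulk fractions, fewer cells of a type and less RNA per cell cannot be told apart, and libraries were made from equal amounts of RNA. Per the study's methods, the fractions were taken in sequence from the same brain and WT and KIN mice were littermates of the same sex, but nothing in the labels says that a replicate number marks one brain or one such pair.

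The 4 loci act on the same signalling pathway at different points. miR-146a and miR-146b are induced by NF-kB downstream of toll-like receptors and repress the adaptors Irak1 and Traf6, which makes them negative feedback regulators. miR-155 is processed from the noncoding transcript Mir155hg, rises in activated macrophages and microglia, and represses brakes of inflammation such as Socs1 and Inpp5d. miR-21 is abundant in most tissues, lies at the end of the Vmp1 gene and represses Pdcd4, and its 3p strand is the passenger that is mostly degraded.

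The mature sequences, from RefSeq, are shown because the seeds set which of these miRNAs can share targets, and because the miR-146 pair can be told apart only near the 3′ end. Capitals mark the seed, bases 2 to 8 from the 5′ end.
mmu-miR-146a-5p: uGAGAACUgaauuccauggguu
mmu-miR-146b-5p: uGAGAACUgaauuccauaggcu
mmu-miR-155-5p: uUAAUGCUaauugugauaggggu
mmu-miR-21a-5p: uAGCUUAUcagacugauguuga
mmu-miR-21a-3p: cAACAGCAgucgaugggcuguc
miR-146a-5p and miR-146b-5p had the same seed and differed by 2 substitutions over 22 bases, G18A and U21C, counted from the 5′ end of miR-146a-5p. No other mature miRNA of the 1978 shared the seed of the miR-146 pair, of miR-155-5p or of miR-21a-3p. The seed of miR-21a-5p was shared by miR-21c and miR-590-5p, and both had 0 counts in all 18 libraries, so the counts of this seed were those of miR-21a-5p alone.

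In GRCm39, miR-146a-5p lay on the minus strand at chr11:43265262-43265283, in the hairpin Mir146 and inside exon 2 of the lncRNA Gm73818. miR-146b-5p lay on the plus strand at chr19:46331229-46331250, in the hairpin Mir146b and within an intron of the coding transcript Mfsd13a-202. miR-155-5p lay on the plus strand at chr16:84511031-84511053, in exon 2 of Mir155hg and opposite an intron of Mrpl39-203. miR-21a-5p and miR-21a-3p lay on the minus strand at chr11:86474946-86474967 and chr11:86474908-86474929, both inside the 3′ UTR of Vmp1, in an exon whose number was mostly 11, 12 or 13, depending on the transcript.

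Libraries held 3144427 to 3980687 counts in astrocytes, 3148211 to 4316748 in microglia and 1211118 to 2427384 in neurons, and mature miRNAs took 5.05% to 10.3%, 5.09% to 8.45% and 0.964% to 2.13% of them. Astrocyte transcripts (Slc1a2, Slc1a3, Aqp4, Gja1, Aldoc and Gfap) summed to 228 to 262 CPM (counts scaled to a library total of 1000000) in WT astrocytes and 75.8 to 101 CPM in KIN astrocytes, and to at most 11.2 CPM in any other library. Microglial transcripts (Csf1r, Cx3cr1, P2ry12, Tmem119 and Aif1) summed to 57.9 to 84.4 CPM in WT microglia and 26.7 to 37.5 CPM in KIN microglia, and to at most 2.48 CPM elsewhere. Neuronal markers set the neurons apart less clearly. Transcripts of 4 neuronal genes summed to a mean of 22.6 CPM in WT and 12.9 CPM in KIN neurons, against 12.4 and 5.66 CPM in astrocytes, and Rbfox3 had 0 counts in KIN neurons. Neuronal miRNAs summed to 135 CPM in WT neurons and 1984 CPM in WT astrocytes, and Ttr, a choroid plexus transcript, had 404 CPM in WT and 435 CPM in KIN neurons. Endothelial transcripts summed to a mean of 61.3 CPM in WT and 43.1 CPM in KIN neurons, above the neuronal ones. In microglia they had 83.5 CPM in WT and 54.8 CPM in KIN. Oligodendrocyte transcripts had 27.3 CPM in WT and 4.18 CPM in KIN neurons. The word neurons is therefore used here as the name of the flow-through, in which the neuronal transcripts had their highest mean of the fractions. The study describes its neuron population as largely pure by marker RNAs. WT replicate 2 of astrocytes and of microglia and KIN replicate 1 of microglia stood apart from the other libraries of their groups, while in WT neurons all 3 libraries differed from each other, most of all replicates 1 and 2. KIN replicate 1 of all 3 fractions had 1.27 to 2.13 CPM of the female transcript Xist where the other 15 libraries had 7.59 to 36.3. The labels give no sex, and the study's methods describe pairs of same-sex littermates, some male and some female, which these levels do not follow. Reads over Atxn2 numbered 0 to 10 per library and could not check the genotype.

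mmu-miR-146a-5p was the most abundant mature miRNA of the microglia in both genotypes. It had 5883, 5907 and 6492 CPM in the WT libraries and 9274, 13072 and 12909 CPM in the KIN libraries. The groups did not overlap, and KIN replicate 1 was the lowest of its group. Its share of all mature miRNA counts was 11.3% ± 0.401 (SD, n = 3) in WT and 15.6% ± 0.213 (SD, n = 3) in KIN, again without overlap.

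In astrocytes the same miRNA had 11.1, 22.4 and 14.6 CPM in WT and 25.6, 26.5 and 19.1 CPM in KIN. In neurons it had 77.6, 145 and 78.6 CPM in WT and 145.9, 164 and 122 CPM in KIN, with ranks of 32 and 24 among mature miRNAs. The 2 genotypes overlapped in both of these fractions. miR-146a-5p was thus a microglial miRNA in this preparation, followed by the flow-through, and lowest in astrocytes.

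mmu-miR-146b-5p, with the same seed, was far less concentrated in microglia. It had 73.1, 74.9 and 89.7 CPM in WT microglia and 146.1, 262 and 240 CPM in KIN microglia, without overlap. Astrocytes had 12.1, 38.7 and 15.5 CPM in WT and 35.5, 26.5 and 26.9 CPM in KIN, and neurons had 7.43, 10.7 and 3.93 CPM in WT and 5.97, 1.24 and 6.19 CPM in KIN. The spread inside the neuronal groups was as wide as the distance between them.

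mmu-miR-155-5p was a low-level miRNA in all fractions. It had 9.50, 12.1 and 10.4 CPM in WT microglia and 36.2, 67.6 and 47.3 CPM in KIN microglia, without overlap. WT neurons had 23.1, 30.7 and 15.1 CPM, all above the WT microglia, and KIN neurons had 29.4, 45.3 and 29.3 CPM. Astrocytes had 4.13, 3.77 and 2.73 CPM in WT and 6.98, 9.20 and 5.11 CPM in KIN, without overlap.

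mmu-miR-21a-5p was abundant everywhere. It had 875, 910 and 1165 CPM in WT microglia and 2104, 4546 and 3738 CPM in KIN microglia, at ranks 20 and 4 of the mature miRNAs. Astrocytes had 549, 1371 and 832 CPM in WT and 1606, 1050 and 1273 CPM in KIN, at ranks 20 and 19. Neurons had 273, 691 and 359 CPM in WT and 492, 502 and 313 CPM in KIN. The genotypes were apart in microglia and overlapped in the other fractions.

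mmu-miR-21a-3p, the passenger strand, was near the detection limit outside microglia. Counts were 6, 3 and 6 in WT microglia and 10, 19 and 27 in KIN microglia, or 1.73, 0.864 and 1.64 CPM against 3.18, 4.40 and 6.28 CPM. Astrocyte libraries had 0 to 4 counts, and 1 of the 6 neuronal libraries had a single count. A count of 0 allows up to 3 counts in a library, and this limit, like every interval given here, covers counting error only, since no collapse of reads by molecule is described.

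**Figure D1:**
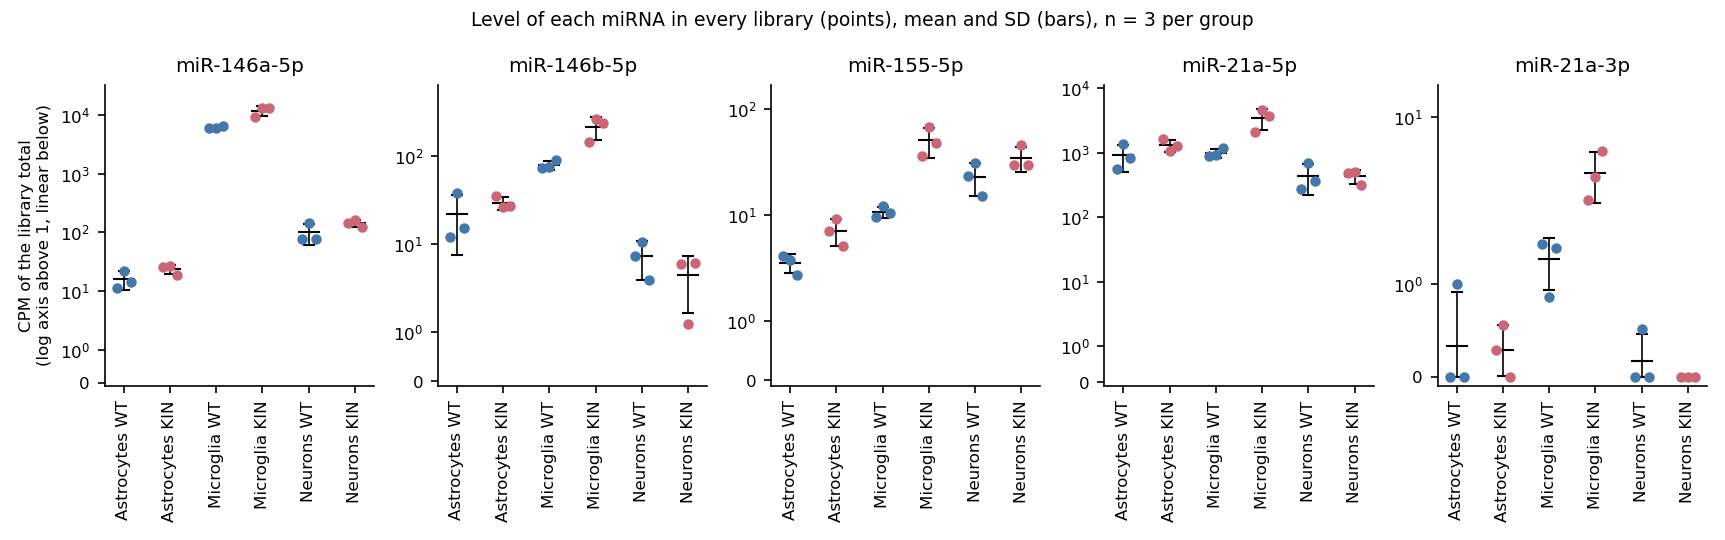
Level of each miRNA in CPM of the library total (log axis above 1 CPM, linear below) in the 18 libraries, with points for libraries in order of replicate number, blue for WT and red for KIN, and bars for mean and SD (n = 3). The KIN microglia lie above the WT microglia in all 5 panels, from 9274 to 13072 CPM against 5883 to 6492 CPM for miR-146a-5p.

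The order of the fractions was tested within each genotype. Calls needed an adjusted p no larger than 0.05 together with a log2 fold change of 1 or more in size. In WT, 3 of the 5 miRNAs were called higher in microglia than in astrocytes, beside 12.2% of all features and 22.5% of mature miRNAs tested. miR-146a-5p differed by 8.66 ± 0.35 on the log2 scale (SE, adjusted p = 4.47e-08), the largest difference of the 418 mature miRNAs tested. miR-146b-5p differed by 1.92 ± 0.43 and miR-155-5p by 1.71 ± 0.40, while miR-21a-5p differed by 0.19 ± 0.32 (adjusted p = 0.665). Against WT neurons, where 14.5% of all features and 57.7% of mature miRNAs were higher in microglia, miR-146a-5p (6.12 ± 0.37), miR-146b-5p (3.6 ± 0.48) and miR-21a-5p (1.35 ± 0.37) were called higher in microglia. The last of these depended on scale. With library sizes taken from mature miRNAs alone, miR-21a-5p was −0.60 (adjusted p = 0.196), and mature miRNAs were a smaller share of the neuronal libraries. miR-155-5p was the exception to the microglial order, at −0.90 ± 0.44 against neurons (adjusted p = 0.157), and with library sizes from mature miRNAs alone it was called lower in microglia, at −2.89 (adjusted p = 0.000334).

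Astrocytes against neurons gave 2 opposite directions inside the set. In WT, miR-146a-5p (−2.43 ± 0.46, adjusted p = 0.00709) and miR-155-5p (−2.48 ± 0.45, adjusted p = 0.00595) were lower in astrocytes, a direction in which 10.2% of all features and 1.93% of mature miRNAs were called. miR-146b-5p (1.80 ± 0.62) and miR-21a-5p (1.27 ± 0.47) had adjusted p-values of 0.0564 and 0.0701, in the direction in which 18.5% of all features and 58.6% of mature miRNAs were called. Replicate numbers were taken as pairs here, which the labels do not state and which rested on correlations in these same data. The pairing is therefore uncertain, and without it neither of these miRNAs was called. With the replicate block both passed, at 1.74 ± 0.50 (adjusted p = 0.00939) and 1.28 ± 0.32 (adjusted p = 0.00388). Scaled to mature miRNAs alone, miR-146b-5p and miR-21a-5p turned to −0.67 and −1.13, so their order between astrocytes and neurons differed by scale, while that of miR-146a-5p and miR-155-5p was the same on both.

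In KIN, all 5 miRNAs were higher in microglia than in astrocytes (14.0% of all features and 22.1% of mature miRNAs were), from 1.53 ± 0.23 for miR-21a-5p to 9.08 ± 0.25 for miR-146a-5p. Against KIN neurons, 4 of 5 were higher in microglia, where 26.2% of all features and 76.1% of mature miRNAs were, and miR-155-5p at 0.98 ± 0.33 (adjusted p = 0.0143) stayed just under the limit on fold change. Its groups overlapped, and scaled to mature miRNAs it was lower in microglia, at −1.51. miR-21a-3p had 56 counts over the KIN microglia and 0 over the KIN neurons. On library totals it was at least 11.4-fold higher in microglia when the 3 neuronal libraries together are given 3 counts. In WT it had 15 counts in microglia and 1 in neurons, a ratio of 6.64 with an exact 95% counting interval of 1.02 to 279. Mature miRNAs were 7.56% of counts in KIN microglia and 1.69% in KIN neurons, and 5.42% and 1.33% in WT. Per mature miRNA count both the bound and the ratio would thus be lower. In KIN astrocytes against KIN neurons all 4 miRNAs tested were called, miR-146a-5p (−2.36) and miR-155-5p (−2.05) lower and miR-146b-5p (2.98) and miR-21a-5p (1.81) higher in astrocytes, beside 22.2% of all features lower and 24.1% higher. Of the mature miRNAs 3.78% were lower and 83.1% higher. Scaled to mature miRNAs, miR-146b-5p was −0.12 and miR-21a-5p −1.33.

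KIN against WT within microglia gave a single direction for the whole set. All 5 miRNAs were higher in KIN, without overlap between the groups in CPM, and all 5 passed the test. Of all 4940 features tested in microglia, 1.42% were called higher, and of the 382 mature miRNAs 8.38% were. Groups lay apart with KIN higher for 8.12% of all features and 21.7% of mature miRNAs.

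Fold changes fell in the order miR-155-5p, miR-21a-5p, miR-21a-3p, miR-146b-5p and miR-146a-5p. miR-146b-5p rose by 1.65 ± 0.23 on the log2 scale (3.14-fold, adjusted p = 0.0131) and miR-146a-5p by 1.16 ± 0.18 (2.23-fold, adjusted p = 0.0162). miR-21a-3p rose by 1.92 ± 0.46 (adjusted p = 0.0483), beside 2.01 ± 0.25 for its guide strand miR-21a-5p and 2.43 ± 0.30 for miR-155-5p, both with an adjusted p of 0.00692. By fold change these were places 5 (miR-155-5p), 11 (miR-21a-5p), 15 (miR-21a-3p), 22 (miR-146b-5p) and 51 (miR-146a-5p) among the 382 mature miRNAs. By p-value miR-155-5p and miR-21a-5p were in places 4 and 5.

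**Figure D2:**
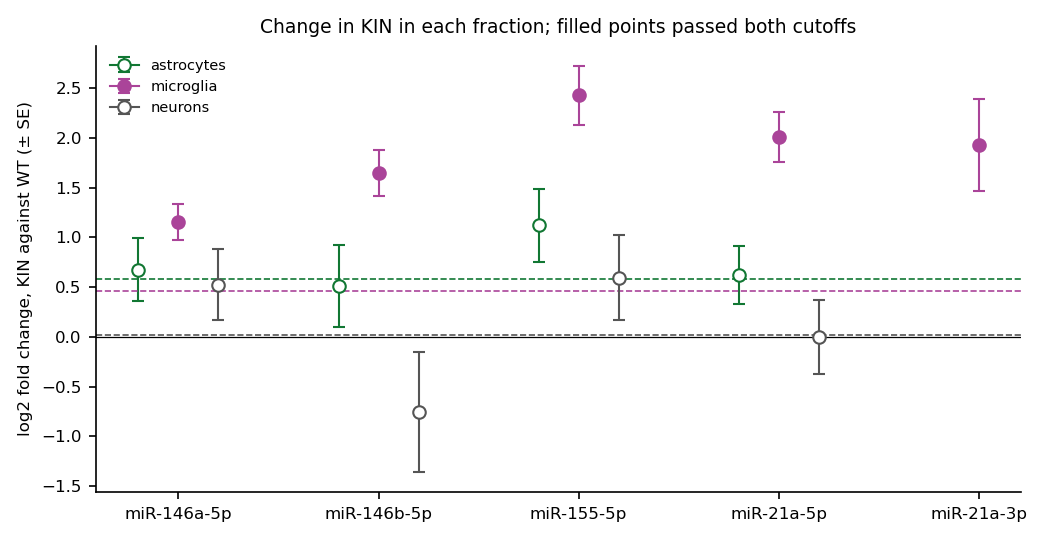
Log2 fold change of KIN against WT with its SE (y axis) for each miRNA (x axis) in astrocytes, microglia and neurons, filled where both cutoffs were passed, with a dashed line at the median of all mature miRNAs of the fraction. Microglia points run from 1.16 to 2.43 and all lie above their dashed line at 0.46, while the astrocyte points of miR-146a-5p, miR-146b-5p and miR-21a-5p lie near theirs at 0.58.

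Mature miRNAs as a class were also higher in KIN microglia. The median log2 fold change in microglia was 0.46 over the 382 mature miRNAs and −0.11 over all features, and mature miRNAs took 7.56% ± 1.47 of KIN and 5.42% ± 0.501 of WT counts (SD, n = 3). Relative to the miRNA median the members stood at 1.97 (miR-155-5p), 1.55 (miR-21a-5p), 1.47 (miR-21a-3p), 1.19 (miR-146b-5p) and 0.70 (miR-146a-5p). Scaled to mature miRNAs alone, 3 of the 5 were called, and miR-146a-5p (0.74, adjusted p = 0.0712) and miR-21a-3p (1.48, adjusted p = 0.0914) were not. With library totals in place of TMM factors the same pair was lost, miR-146a-5p at 0.95.

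The calls also depended on which libraries were used. Without KIN replicate 1 or WT replicate 2, the libraries that stood apart, 5 of 5 were called. Leaving out KIN replicate 2 left 2 calls (miR-155-5p and miR-21a-5p), leaving out WT replicate 3 left 1 (miR-21a-5p), and leaving out KIN replicate 3 or WT replicate 1 left 0. Calls over all features were then 10, 12, 4 and 0, in the same order, against 940 without WT replicate 2. All fold changes of the members in the fits without 1 library were above 0, from 0.99 to 2.64.

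**Figure D3:**
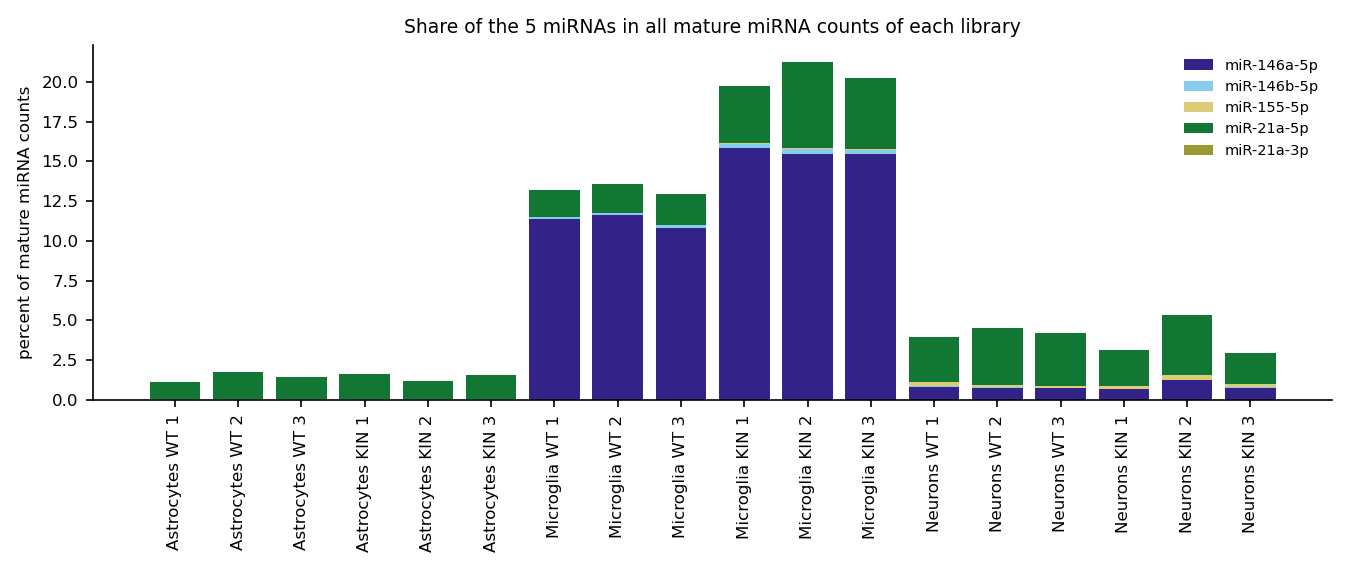
Percent of all mature miRNA counts (y axis, from 0) taken by the 5 miRNAs in each of the 18 libraries, stacked by miRNA. The bars reach 13.0% to 13.6% in WT microglia and 19.7% to 21.2% in KIN microglia, nearly all of it miR-146a-5p and miR-21a-5p, against at most 5.36% in any other library.

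As a share of mature miRNA counts, the 5 miRNAs together made up 13.3% ± 0.317 in WT microglia and 20.4% ± 0.763 in KIN microglia (SD, n = 3), without overlap. miR-21a-5p made up 1.81% ± 0.127 and 4.48% ± 0.894 of these counts. In astrocytes the sum was 1.43% ± 0.294 in WT and 1.47% ± 0.218 in KIN, and in neurons it was 4.24% ± 0.297 and 3.82% ± 1.34, with overlap in both.

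In astrocytes none of the 4 miRNAs tested was called, where 8.18% of all features were called in either direction, 1.79% were called higher, and 11.2% of mature miRNAs were called higher. miR-155-5p was the nearest, at 1.12 ± 0.37 (adjusted p = 0.0686), and its groups did not overlap, as with 10.8% of all features and 34.7% of mature miRNAs in that direction. miR-146a-5p (0.68 ± 0.32), miR-21a-5p (0.62 ± 0.29) and miR-146b-5p (0.52 ± 0.41) had adjusted p-values of 0.160, 0.160 and 0.403, and were close to the median of 0.58 over 418 mature miRNAs. Scaled to mature miRNAs alone, these 3 were at 0.03, 0.00 and −0.05. Without WT replicate 2 all 4 were called, at 1.01 (miR-146a-5p), 1.05 (miR-21a-5p), 1.18 (miR-155-5p) and 1.23 (miR-146b-5p). Calls over all features rose as well in the fit without WT replicate 2. They numbered 1527 there, 466 with all libraries, and 41 to 78 without any other single library. WT replicate 2 had the highest CPM of its group for miR-146a-5p, miR-146b-5p and miR-21a-5p, and its mature miRNA share of 8.30% was also the highest of the 3.

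In neurons none of the 4 miRNAs tested was called and none of 4535 features was (0.0%), while 197 features had an unadjusted p under 0.05 and DESeq2 called 0. miR-155-5p was at 0.60 ± 0.43, miR-146a-5p at 0.53 ± 0.36, miR-21a-5p at −0.01 ± 0.37 and miR-146b-5p at −0.75 ± 0.61, each with an adjusted p of at least 0.917. Neuronal counts were few, with 3 to 21 per library for miR-146b-5p and 23 to 110 for miR-155-5p. The direction of miR-21a-5p changed with the tool, at 0.04 by DESeq2, and without WT replicate 2 it was 0.43.

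A call in one fraction and not in another does not show that the fractions differ, so the difference of the KIN effect was tested. Microglia minus astrocytes, 0.113% of all features and 0.629% of mature miRNAs were called higher and none of the 5 miRNAs was. The differences were 1.41 ± 0.43 for miR-21a-5p (adjusted p = 0.170), 1.32 ± 0.51 for miR-155-5p (adjusted p = 0.343), 1.15 ± 0.50 for miR-146b-5p and 0.49 ± 0.33 for miR-146a-5p (adjusted p = 0.694). miR-21a-3p, at 2.22 ± 1.36, had few counts in astrocytes and turned to −1.25 without WT replicate 2 of astrocytes. DESeq2 called miR-21a-5p, at 1.5, and without WT replicate 2 of astrocytes miR-146a-5p was at −0.09. Microglia minus neurons, 0.0624% of all features and 0.493% of mature miRNAs were called higher and again none of the 5 was, with miR-21a-5p at 2.20 ± 0.51 (adjusted p = 0.0508), miR-146b-5p at 2.58 ± 0.67 (adjusted p = 0.0908), miR-155-5p at 1.99 ± 0.58 (adjusted p = 0.139) and miR-146a-5p at 0.80 ± 0.41. DESeq2 called miR-21a-5p and miR-146b-5p. The fit with the replicate block called the same pair, at 2.10 (adjusted p = 0.00306) and 2.55 (adjusted p = 0.00762).

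**Figure D4:**
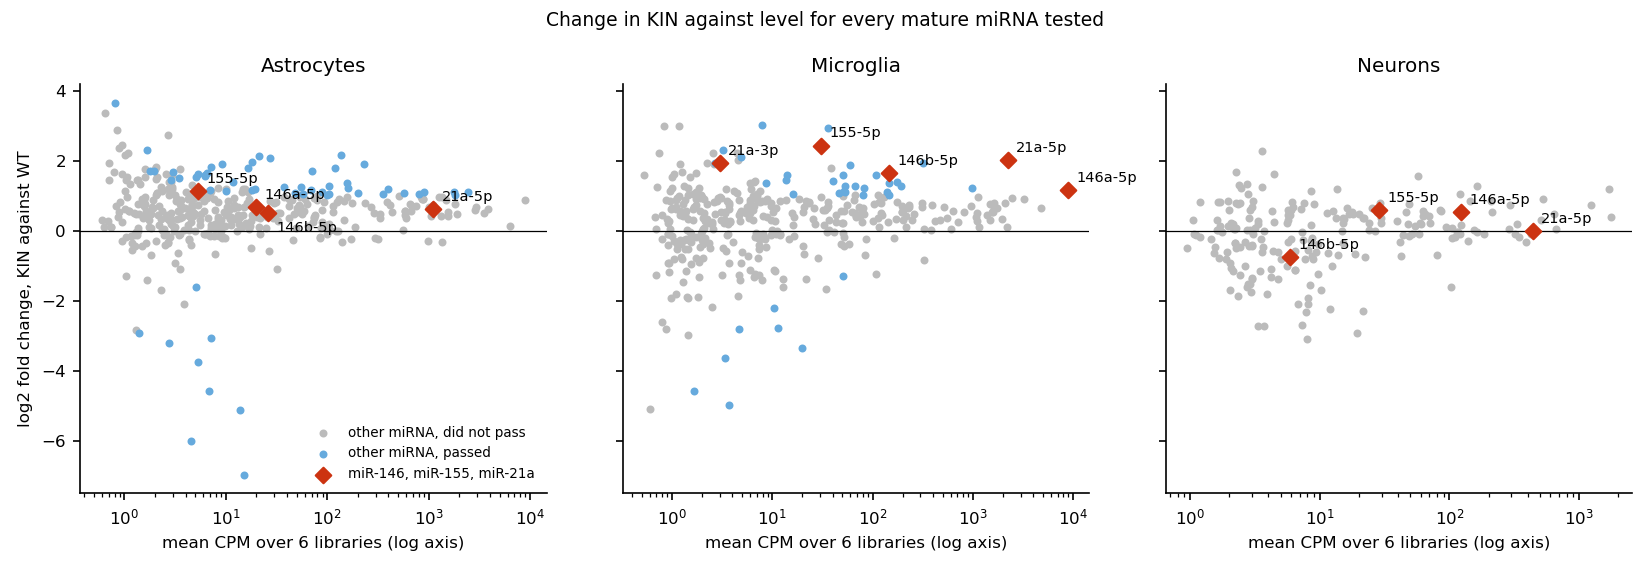
Log2 fold change of KIN against WT (y axis) against mean CPM over the 6 libraries of the fraction (x axis, log) for every mature miRNA tested, with red diamonds for the 5 miRNAs and blue for other miRNAs that passed both cutoffs. In microglia the diamonds of miR-21a-5p and miR-146a-5p lie at the abundant end, at 2.01 and 1.16, above the median of 0.46.

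The miR-146 pair was split differently in each fraction. miR-146b-5p made up 1.28% ± 0.0722 of the summed counts of the pair in WT microglia and 1.78% ± 0.211 in KIN microglia (SD, n = 3). The libraries held 1.23%, 1.25% and 1.36% in WT and 1.55%, 1.97% and 1.82% in KIN, without overlap, and the exact two-sided permutation test gave p = 0.1, the smallest that 3 against 3 libraries allow (adjusted p = 0.4 over 4 tests). In astrocytes miR-146b-5p was the larger part of the pair, with 55.6% ± 6.70 in WT and 55.5% ± 4.79 in KIN (exact permutation p = 1). In neurons it was 6.80% ± 1.99 and 3.16% ± 2.14 (exact permutation p = 0.2, adjusted p = 0.4). The shared seed was thus carried mostly by miR-146a-5p in microglia and the flow-through, and about equally by both in astrocytes. These shares do not depend on scaling. They do depend on the placement of reads, since reads of the pair could be exchanged between its members. Reads of miR-146a-5p placed on miR-146b-5p would weigh most in microglia, and this was not tested.

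The strand ratio of miR-21a did not differ beyond the spread of the libraries. The guide strand outnumbered the passenger by 506, 1054 and 712 in WT microglia and by 662, 1033 and 595 in KIN microglia. The log2 ratios were 9.50 ± 0.53 and 9.53 ± 0.42 (SD, n = 3, exact permutation p = 1), a difference of 0.03. Other fractions had libraries with 0 counts of the passenger strand and were not tested. The passenger strand of miR-146a, miR-146a-3p, was seen only in microglia, with 6, 6 and 10 counts in WT and 10, 15 and 12 in KIN (0.82 ± 0.43, adjusted p = 0.274). Those of miR-146b and miR-155 had 20 counts and 1 count over all 18 libraries.

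Counts on the hairpin features of these loci followed the same order. In KIN microglia the hairpin features of Mir155 (2.29 ± 0.38), Mir21a (1.98 ± 0.24), Mir146b (1.68 ± 0.23) and Mir146 (1.26 ± 0.18) were all called higher, as were both transcripts of Mir155hg, the miR-155 precursor (2.28 ± 0.40 and 2.14 ± 0.37). None of them was called in astrocytes or neurons. Without WT replicate 1, WT replicate 3, KIN replicate 2 or KIN replicate 3 of microglia, each taken out alone, the calls of Mir155, Mir146b, Mir146 and both Mir155hg transcripts were lost (adjusted p up to 0.136), and that of Mir21a was lost without WT replicate 1 or KIN replicate 3 (up to 0.0816). The replicate block lost Mir146 and 1 of the Mir155hg transcripts, and scaling to mature miRNAs alone lost Mir146, at 0.85. Hairpin counts per mature count in microglia were 0.491 ± 0.00839 in WT and 0.528 ± 0.00169 in KIN for Mir146, without overlap, and 0.736 ± 0.00721 and 0.720 ± 0.0163 for Mir21a (SD, n = 3). The Vmp1 transcript that contains the Mir21a hairpin had the same counts as the hairpin, to within 14 counts in each of the 18 libraries, so it is no separate observation of the host gene. Nearly equal counts on both features are at odds with the described placement of reads in successive rounds, so hairpin counts and library totals may hold reads counted more than once, which was not tested. Hairpin reads and mature reads of one locus are not independent either. Both transcripts of Mir155hg hold miR-155-5p in exon 2, so their counts may include reads of the same hairpin. They are therefore not taken as a separate observation of the precursor.

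A myeloid marker had a higher mean in KIN in each fraction, and was called only in astrocytes. miR-142a-3p, which is made by blood-derived and myeloid cells, had a mean of 7.88 CPM in WT and 28.2 CPM in KIN astrocytes (1.96 ± 0.33, adjusted p = 0.00975). In microglia it had 2485 CPM in WT and 4057 CPM in KIN (0.91, adjusted p = 0.0473, under the limit on fold change). Neurons had 96.4 CPM in WT and 231 CPM in KIN (1.28, adjusted p = 0.917, not called). The 3 myeloid miRNAs, miR-142a-3p, miR-142a-5p and miR-223-3p, summed to 10.2 to 12.6 CPM in WT and 25.0 to 48.5 CPM in KIN astrocytes, while the transcripts of the 5 microglial genes summed to 0.251 to 0.954 and 0.557 to 0.872 CPM there, with Tmem119 and Aif1 at 0. In neurons the myeloid miRNAs summed to 42.9 to 225 CPM in WT and 173 to 377 CPM in KIN, with overlap. miR-223-3p alone was at −0.42 there (adjusted p = 0.943). P2ry12 and Tmem119 had 0 counts in neurons. Oligodendrocyte miRNAs (miR-219a-2-3p, miR-219a-5p and miR-338-3p) summed to 1770 to 3035 CPM in WT and 3351 to 5112 CPM in KIN astrocytes, without overlap. Oligodendrocyte transcripts went the other way there, at 18.5 to 21.6 CPM in WT and 10.5 to 12.2 CPM in KIN. The part of these myeloid and oligodendrocyte markers in the astrocyte and neuronal values was not tested.

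Per count of miR-142a-3p in microglia, miR-21a-5p had 0.395 ± 0.0444 counts in WT and 0.845 ± 0.0456 in KIN, miR-155-5p 0.00432 ± 0.000828 and 0.0126 ± 0.00175, and miR-146b-5p 0.0319 ± 0.00236 and 0.0537 ± 0.00214 (SD, n = 3), all without overlap. miR-146a-5p had 2.46 ± 0.115 and 3.00 ± 0.496, and there the groups overlapped, from 2.35 to 2.58 in WT and from 2.57 to 3.54 in KIN. In astrocytes the same ratio of miR-146a-5p was 1.99 ± 0.445 in WT and 0.880 ± 0.189 in KIN, and that of miR-21a-5p was 113 ± 36.7 and 51.3 ± 21.5, lower in KIN and without overlap in both cases. How many other features lay apart on this ratio is not given here. In CPM, the microglial groups lay apart with KIN higher for 8.12% of all features and 21.7% of mature miRNAs.

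**Figure D5:**
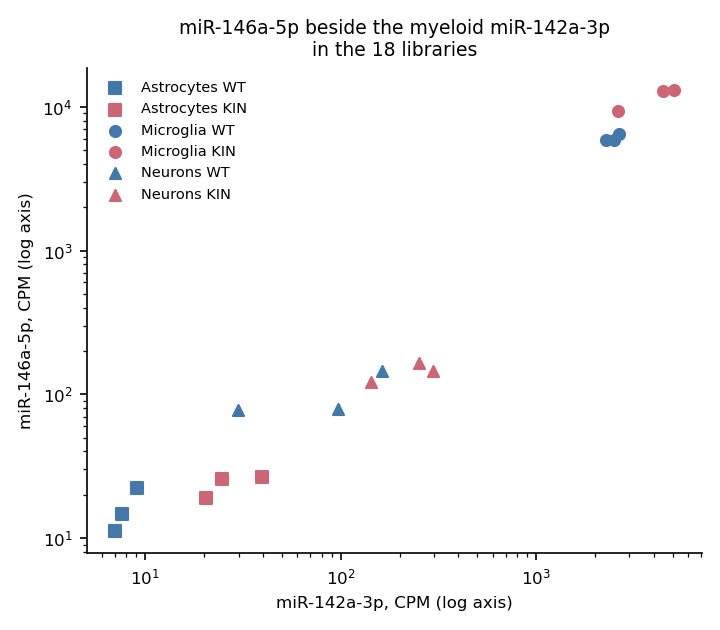
CPM of miR-146a-5p (y axis, log) against CPM of the myeloid miR-142a-3p (x axis, log) in the 18 libraries, squares for astrocytes, circles for microglia and triangles for neurons, blue for WT and red for KIN. KIN astrocytes lie to the right of WT astrocytes with overlapping heights (19.1 to 26.5 CPM against 11.1 to 22.4), and KIN microglia lie above WT microglia.

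Markers of other cells also differed between the microglial groups. The microglial transcripts summed to a mean of 73.8 CPM in WT and 33.1 CPM in KIN, without overlap, and 1 of the 15 microglial and myeloid features tested, a transcript of Cx3cr1, was called lower (−1.60 ± 0.37), in a fraction where 2.94% of all features were called lower. That call was lost in 4 of 6 fits without 1 library (adjusted p up to 0.183, all but those without WT replicate 2 or KIN replicate 1), with the replicate block and when features of low count were kept. The neuronal miR-124-3p was 75.9 CPM in WT and 26.0 CPM in KIN (called lower), a call that was lost in 5 of 6 fits without 1 library (adjusted p up to 0.186, all but that without WT replicate 2) and in 3 of 6 other settings (up to 0.117). The erythroid miR-451a was 16.4 to 20.5 CPM in WT and 25.7 to 118 CPM in KIN (adjusted p = 0.0723), with an SD of 51.6 CPM in KIN. Transcripts of some other cells were lower in KIN microglia without overlap. Summed means were 7.98 and 2.06 CPM in WT and KIN for the astrocyte genes, 5.78 and 0.570 CPM for the neuronal genes and 5.45 and 1.25 CPM for the oligodendrocyte genes. Other markers had higher means in KIN, with overlap. Oligodendrocyte miRNAs summed to means of 32.3 and 38.3 CPM in WT and KIN. The choroid plexus markers miR-204-5p and Ttr had 165 and 229 CPM, and 7.53 and 9.51 CPM. Endothelial miRNAs summed to 215 to 265 CPM in WT and 118 to 236 CPM in KIN, and mural miRNAs to 145 to 202 and 59.4 to 136 CPM. Their part in the microglial values was not tested.

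The mature miRNAs whose pattern over the 6 group means was most like each member were found by the root mean square difference of centred log2(CPM + 1) among 274 miRNAs with at least 10 counts per library on average. For miR-146a-5p they were miR-142a-3p (0.79), miR-223-3p (1.30) and miR-142b (1.48), against a median of 3.79 over all candidates. For miR-155-5p they were miR-211-5p (0.60), with 1.97 CPM in WT and 13.9 CPM in KIN microglia, miR-19a-3p (0.92) and miR-20a-3p (0.92). For miR-21a-5p they were miR-378c (0.35), miR-574-5p (0.37) and miR-378a-5p (0.38), for miR-146b-5p miR-339-3p (0.41), miR-425-5p (0.45) and miR-139-5p (0.51), and for miR-21a-3p miR-574-5p (0.22), miR-877-3p (0.43) and miR-25-3p (0.44).

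Other miRNAs of the pathway were described from a list. Of 16 miRNAs linked to toll-like receptor and NF-kB signalling, 15 were tested in microglia, 5 were called higher and none lower, with a median of 0.52 against 0.46 for all mature miRNAs. The 5 stood beside 1.42% of all features and 8.38% of mature miRNAs called higher. Leaving out 1 library gave 5 (without WT replicate 2 or KIN replicate 1) or 0 called higher (without any of the other 4), and the other settings gave 1 (replicate block) to 5 higher. In both kinds of fit 0 or 1 was called lower. The 4 with the largest change were miR-222-3p (1.88 ± 0.24, from 28.5 to 90.8 CPM), miR-221-3p (1.59 ± 0.23, from 60.4 to 155 CPM), miR-27b-3p (1.41 ± 0.24) and miR-98-5p (1.27 ± 0.25). miR-221 and miR-222 come from one cluster and share their seed, and let-7i-5p, which targets Tlr4, was the fifth to be called, named after its values were seen. miR-223-3p, the neutrophil and myeloid miRNA, was at 0.27 (adjusted p = 0.575). In astrocytes 0 of 15 were called at a median of 0.46 against 0.58 for all mature miRNAs, and in neurons 0 of 14 at 0.14 against 0.01.

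Transcripts of the signalling genes and of known targets had few counts in these small RNA libraries. Of 23 genes of toll-like receptor and NF-kB signalling, which had 110 transcripts with a count, 7 transcripts passed the filter in microglia and none was called, at a median of 0.30. They were the receptors Tlr2 (0.44 ± 0.51) and Tlr7 (−1.32 ± 0.77), the inhibitors Nfkbia (0.09 ± 0.56) and Tnfaip3 (1.45 ± 0.59 and −1.57 ± 0.79 for 2 transcripts), and the effectors Il1b (0.30 ± 0.66) and Ccl3 (0.70 ± 0.47). In astrocytes and neurons no transcript of the list passed the filter.

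No transcript of the known targets of miR-146 was tested in microglia, 2 of miR-155 were, with a median of 0.05, and 3 of miR-21 were, with a median of 0.08 beside −0.11 for all features. None of the 5 was called. Bach1 was at 0.04 ± 0.54, Cebpb at 0.07 ± 0.76, Spry2 at 0.08 ± 0.40, Pdcd4 at 0.08 ± 0.84 and Btg2 at −0.51 ± 0.47. In astrocytes 3 target transcripts were tested (1 of miR-146, 2 of miR-21) and Timp3, an inhibitor of metalloproteinases and a miR-21 target, was called lower at −1.98 ± 0.52 (adjusted p = 0.0395), with 12 to 18 counts in WT and 2 to 7 in KIN, in a fraction where 6.39% of all features were called lower. This call was lost in 5 of 6 fits without 1 library (adjusted p up to 0.125, all but that without WT replicate 2), in 1 fit of all 18 libraries and when features of low count were kept (adjusted p = 0.15). In neurons 0 of 5 were called.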

How the data were processed

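Small RNA was sequenced from 18 libraries (GenXPro kit, TRIzol extracts). Per the study's methods and the submitters' processing notes, the authors trimmed with Cutadapt 4.6 and then used Bowtie2 2.4.4 in local mode to match reads, in rounds, to mature miRNAs, tRNAs, piRNAs and Ensembl noncoding and coding transcripts of mm39. HTSeq 2.0.2 counted them, ignoring strand and mapping quality. The overlapping features Vmp1 and Mir21a had nearly equal counts, so library totals may count a read more than once. Per the file headers, the deposited values are counts of reads for each feature, with no scaling. The kit adds molecular identifiers, but their use is not described for these libraries. Reads of the miR-146 pair differ at 2 bases and could be exchanged between its members. A further 36 columns of per-library values on other scales, and the authors' own fold changes and p-values, were not used.

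Counts were tested with edgeR 4.0.16 under R 4.3.3 (quasi-likelihood, TMM factors, library sizes over all features), keeping features that had 5 or more counts in 2 or more libraries. p-values were two-sided and adjusted by Benjamini-Hochberg over all features of a comparison, and each fit held only the libraries compared. CPM are counts scaled to a library total of 1000000, without TMM factors. The main edgeR test of KIN against WT was run on simulated counts for each fraction, and the other steps were not.

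Members, lists and tests were chosen with earlier results of these data known. Named were all members, features of their loci, miRNAs of the same seed, the 3 of most like pattern (up to 3 are given), and up to 4 called members of a list per fraction; other names were added after their values were seen. Deviations of same-numbered libraries correlated positively in each pair of WT fractions. Correlations were 0.106 to 0.313 for astrocytes against neurons, 0.0432 to 0.346 for microglia against astrocytes and 0.00926 to 0.251 for microglia against neurons. Numbers were taken as pairs only in the first. As in the others, 2 of 3 libraries correlated best with their own number there. Astrocyte replicate 1 correlated at 0.149 with both neuron replicates 1 and 3, and astrocyte replicate 3 at 0.110 and 0.106. In the others the replicate block left 3 of the 5 miRNAs called. Sequences are from RefSeq (GRCm38.p6) and identical to the table for all 5 members; positions come from matches to GRCm39 with GENCODE vM39. Alternatives were DESeq2 1.42.0, library totals, TMM over mature miRNAs, no filter, 1 fit of 18 libraries, a replicate block, and leaving out each library. A few genes of the lists are not reported here and were left out of every sum and median.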

Additional observations from a re-analysis of the deposited data

How the results depend on the processing

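Leaving out a library left 2 against 3 libraries, and the cause of the changes below was not tested. Over these settings the number of features called ranged from 41 to 1527 in astrocytes, from 0 to 940 in microglia, from 0 to 52 in neurons, from 0 to 362 for microglia minus astrocytes and from 0 to 120 for microglia minus neurons. The highest counts came without WT replicate 2 of astrocytes, of microglia, and, for both differences, of microglia, and without WT replicate 1 of neurons. Of the 5 miRNAs, 0 to 4 were called in astrocytes, 0 to 5 in microglia, 2 to 4 in WT astrocytes against WT neurons (4 without WT replicate 2 of neurons), 0 to 1 for microglia minus astrocytes and 0 to 2 for microglia minus neurons.

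The log2 fold changes ranged in astrocytes from 0.43 to 1.01 (miR-146a-5p), 0.19 to 1.23 (miR-146b-5p), 0.86 to 1.31 (miR-155-5p) and 0.31 to 1.05 (miR-21a-5p). In microglia they ranged from 0.99 to 1.23 (miR-146a-5p), 1.46 to 1.80 (miR-146b-5p), 2.21 to 2.64 (miR-155-5p), 1.80 to 2.21 (miR-21a-5p) and 1.65 to 2.05 (miR-21a-3p). miR-21a-5p ranged from −0.23 to 0.43 in neurons, and from −0.076 (without WT replicate 1 of astrocytes) to 0.83 between WT microglia and WT astrocytes. For microglia minus astrocytes, miR-146a-5p ranged from −0.089 to 0.66, miR-21a-3p from −1.25 to 3.00 (both lowest without WT replicate 2 of astrocytes) and miR-21a-5p from 0.74 to 1.66, called only without KIN replicate 1 of microglia. For microglia minus neurons, miR-155-5p ranged from 1.36 to 2.32, called without WT replicate 2 of microglia, and miR-21a-5p from 1.37 to 2.44, called without WT replicate 2 or KIN replicate 1 of microglia and without WT replicate 1 or 3 of neurons. The difference in the share of miR-146b-5p in astrocytes ranged from −2.19 to 3.74 percentage points, and that in the log2 strand ratio of miR-21a from −0.23 to 0.30.

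With TMM over mature miRNAs alone, features called numbered 1494 in astrocytes, 329 in microglia, 20 in neurons, and 10 and 81 for microglia minus astrocytes and minus neurons. The median of all features then moved to −0.91 in astrocytes, −0.53 in microglia and −0.24 in neurons. In microglia 3 of the 5 miRNAs were called, with miR-146a-5p at 0.74 and miR-21a-3p at 1.48, and miR-146b-5p was −0.055 in astrocytes. Between fractions, miR-21a-5p was −0.60 for microglia against neurons in WT and −1.13 and −1.33 for astrocytes against neurons in WT and KIN, miR-146b-5p was −0.67 and −0.12 for the latter, and miR-155-5p was −1.51 for microglia against neurons in KIN.

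DESeq2 called 379 features in microglia, 140 for microglia minus astrocytes and 122 for microglia minus neurons. It called 1 of the 5 miRNAs for microglia minus astrocytes (miR-21a-5p at 1.5) and 2 for microglia minus neurons (miR-146b-5p at 2.37, miR-21a-5p at 1.95), and gave 0.035 for miR-21a-5p in neurons. Library totals in place of TMM called 53 features for microglia minus astrocytes and 3 of the 5 miRNAs in microglia, with miR-146a-5p at 0.95 and miR-21a-3p at 1.70. When features of low count were kept, 426 were called in microglia, 75 in neurons, 108 for microglia minus astrocytes and 100 for microglia minus neurons. miR-21a-3p in microglia was then 1.88 and no longer called, miR-21a-5p in neurons was 0.16, and 4 miRNAs were called between WT astrocytes and WT neurons. In 1 fit of all 18 libraries, 237 features were called in astrocytes, 400 in microglia, 61 for microglia minus astrocytes and 124 for microglia minus neurons, miR-21a-3p in microglia was 1.95 and not called, and 4 miRNAs were called between WT astrocytes and WT neurons.

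With the replicate block, 49 features were called in microglia, 75 for microglia minus astrocytes and 113 for microglia minus neurons. Of the 5 miRNAs, 3 were called in microglia, with miR-146a-5p at 1.16 (adjusted p = 0.0607) and miR-21a-3p at 1.92 (adjusted p = 0.111), and 2 for microglia minus neurons, miR-146b-5p at 2.55 and miR-21a-5p at 2.10. miR-21a-5p in neurons was 0.056. Same-numbered libraries of the genotypes did not deviate together (correlations of −0.237 to 0.188 in microglia), so the numbers were not taken as pairs there. In WT astrocytes against WT neurons they were, on correlations in these same data, and 4 miRNAs were called with the block against 2 without. Depth limits miR-21a-3p and the neuronal values of miR-146b-5p, both with under 30 counts in each library, and miR-155-5p in WT astrocytes, with 9 to 15.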
